A study of Mus musculus with 9 samples.

Results

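The CXC chemokines that draw neutrophils into tissue through the receptor CXCR2 (Cxcl1, Cxcl2, Cxcl3, and Cxcl5), that receptor (Cxcr2), and the chemokine and receptor that hold neutrophils in the bone marrow (Cxcl12 and Cxcr4) were followed in mouse liver after systemic CD40 activation. They were 7 of the 24341 genes in the deposited table, chosen by name, and all 7 had a mean above 0.1 FPKM, the level needed for a test. FPKM counts fragments per kilobase of a transcript and is scaled for the depth of each library. The libraries were made from bulk liver RNA of 9 wild-type C57BL/6 mice, collected 2 days after treatment. Anti-CD40 (clone FGK45, an antibody that activates the receptor CD40) was given to 3 mice, numbered 2, 5, and 9. The 6 control mice, numbered 3, 4, 7, 8, 11, and 12, received PBS. The labels give neither the age nor the sex of these mice. In the study's animal work, anti-CD40 mice whose blood B cells did not fall were left out, and whether that applied to the sequenced mice is not stated.

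CXCR2 and CXCR4 are G protein–coupled receptors that pull neutrophils in opposite directions. CXCL12, made by stromal cells, acts on CXCR4 to keep neutrophils in the marrow, whereas ligands of CXCR2, made by tissue macrophages, endothelium, and epithelium on exposure to cytokines such as TNF and IL-1, favor release into blood and entry into inflamed tissue. In liver, CXCR2 ligands guide neutrophils along the sinusoids, and CXCL12 is produced by stellate and endothelial cells. CXCR4 is also carried by B cells, T cells, and monocytes.

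The 4 CXCR2 ligand genes lie on chromosome 5 of the mouse genome (mm10). Promoter sequences in the RefSeq annotation of GRCm38.p6 were matched to 6 of the 7 genes, all but Cxcl5. The 250 bases before the start of each gene were searched on both strands for the κB motif, a sequence bound by NF-κB (GGGA, any base, then TTTCC), and for the AP-1 motif TGANTCA. The κB motif was present once in the promoters of Cxcl1, Cxcl2, and Cxcl3, with the same letters in each, and was not matched in those of Cxcr2, Cxcl12, or Cxcr4. Of all 32841 promoters in the annotation, 117 (0.356%) hold it. The AP-1 motif, which 6.75% of promoters hold, was matched in none of the 6, and the motifs did not overlap. A match or its absence describes these letters in this window and was not linked to binding. The windows around the match, shown because these 3 ligands rose together, are given with the κB match in capitals, 5′ to 3′ on the plus strand (Cxcl1 at chr5:90891134-90891223, Cxcl2 at chr5:90903762-90903851, and Cxcl3 at chr5:90785988-90786077).
Cxcl1: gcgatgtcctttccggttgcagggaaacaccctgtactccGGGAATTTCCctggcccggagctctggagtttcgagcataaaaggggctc
Cxcl2: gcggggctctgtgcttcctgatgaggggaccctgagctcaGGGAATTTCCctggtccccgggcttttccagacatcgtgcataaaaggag
Cxcl3: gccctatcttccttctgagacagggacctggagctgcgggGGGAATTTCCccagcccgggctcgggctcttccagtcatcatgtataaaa
The first base of the match was 71 bases upstream of the gene start in Cxcl1, 97 in Cxcl2, and 73 in Cxcl3. The 90-base windows were set side by side on the match, without gaps. Those of Cxcl1 and Cxcl2 were the same at 41 bases, Cxcl1 and Cxcl3 at 38, and Cxcl2 and Cxcl3 at 32. These counts include the match itself, and no chance level was computed. They miss stretches that are alike but shifted, as near the right ends of the Cxcl2 and Cxcl3 windows. The counts therefore do not rank how alike the promoters are. Across the annotation, 112 genes had a promoter with this κB motif, and 50 of them were tested. Of these 50, 20 (40%) were higher and 11 (22%) lower after anti-CD40, beside 23.5% higher and 21.7% lower over all genes tested. With these 3 ligands left out, 17 of the remaining 47 (36.2%) were higher.

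Libraries were read from the 3′ end of transcripts, and the table gives no read totals, so absolute depth is unknown. The value of 1 read could be recovered from the steps between low FPKM values. Its inverse, relative to the mean of the mice, was 0.991 to 1.13 in the anti-CD40 and 0.870 to 1.06 in the control mice. This inverse follows the scaling behind the FPKM values and need not equal relative sequencing depth. Read numbers given here are the smallest whole numbers within 0.1 of a read in every mouse, and the true numbers could be multiples of them. The lowest value in the table, 0.01 FPKM, stands for no detected reads. Libraries standing apart were those of anti-CD40 mouse 5, which held pancreatic enzyme transcripts (summed level of 10 acinar genes 1210 FPKM, against 28.0 and 33.8 in the other anti-CD40 mice and 70.8 to 190.5 in control mice), and of control mouse 4, which is described with the genes it touches. Serum amyloid A genes took 25.4% to 25.9% of the summed FPKM after anti-CD40 and at most 0.380% in control mice. On a scale of fixed total, this would lower every other value. All 10 hepatocyte genes listed were detected in every mouse, with Alb at 933 FPKM after anti-CD40 and 5040.3 in control mice on average. Values of different mice already shared 1 scale, with median ratios of 1.004 to 1.010. Summed FPKM ran from 896032 to 994645, so the deposited values were not held to a fixed total.

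Of the 7 genes, 6 were higher and 1, Cxcl12, was lower after anti-CD40 at an adjusted p under 0.05 (limma on log2(FPKM + 0.1), Benjamini-Hochberg over the 13807 genes tested). Across all genes tested, 45.1% were called, 23.5% higher and 21.7% lower. The groups did not overlap in any of the 7 genes, as in 42.4% of all genes tested (22.7% higher and 19.6% lower). The median log2 fold change was 0.006 over all genes tested, with 95% of genes between −1.83 and 2.80. Each of the 7 genes had an exact 2-sided permutation p of 0.0238 over the 84 ways to split the mice into 3 and 6. The 1-sided p was doubled, and 0.0238 is the smallest value that this can give with these groups. The mice are the replicates, and libraries of bulk tissue cannot tell fewer cells of a type apart from less RNA per cell.

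**Figure D1:**
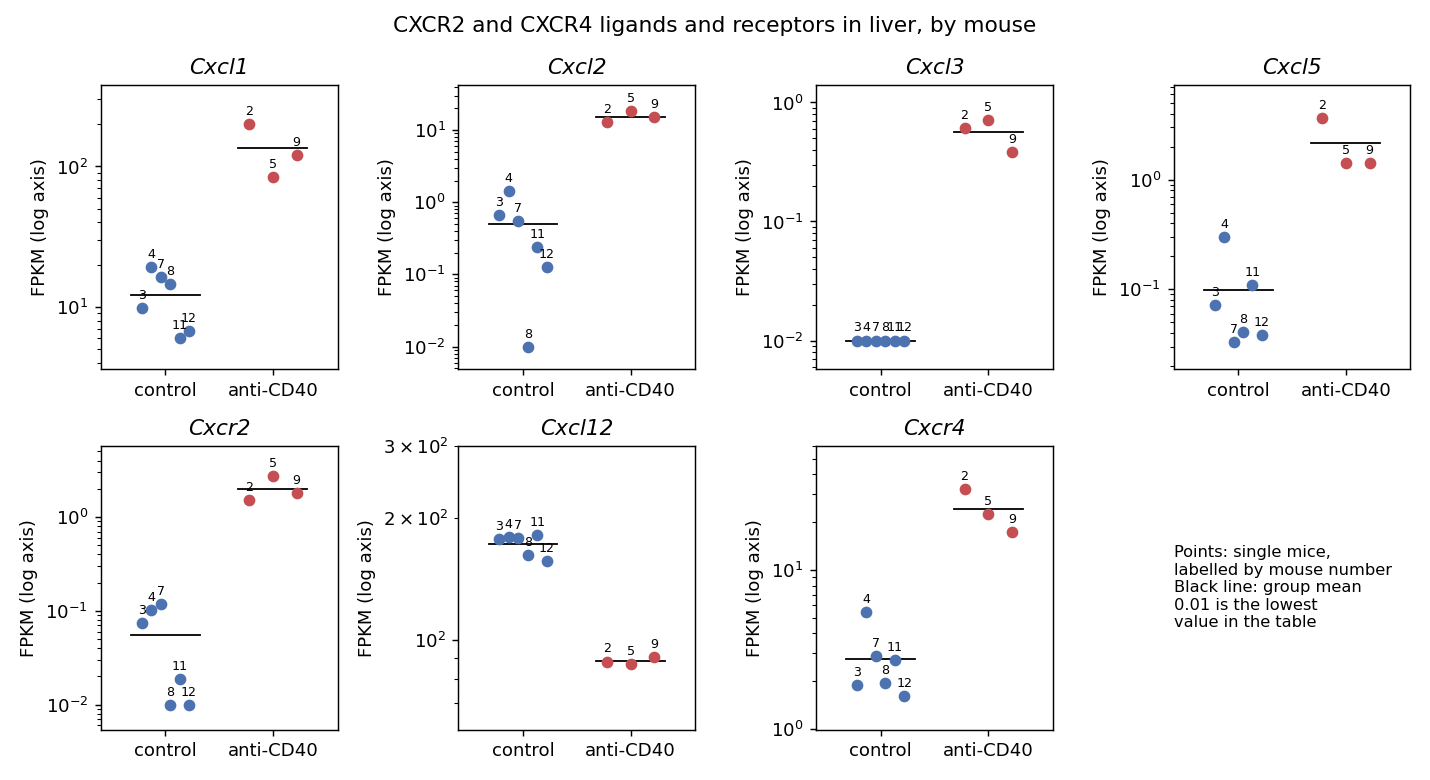
FPKM of the 7 genes on log axes, with 1 point for each mouse, its number beside it, and the group mean as a line (3 anti-CD40 and 6 control mice). In every panel the red anti-CD40 points lie clear of the blue control points, above them for all genes but Cxcl12, and 0.01 is the lowest value in the table.

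Cxcl1, the most abundant CXCR2 ligand here, encodes a chemokine that macrophages, endothelium, and hepatocytes release early in injury (chromosome 5, 90891245 to 90893115). Levels in anti-CD40 mice 2, 5, and 9 were 199.5, 84.2, and 121 FPKM, and those in control mice were lower, at 9.80, 19.2, 16.2, 14.7, 6.05, and 6.80 (mice 3, 4, 7, 8, 11, and 12). All anti-CD40 mice were above all control mice, and the lowest of them exceeded the highest control mouse 4.38-fold. Transcripts were thus measurable in every control liver. The mean rose from 12.1 ± 5.38 (SD, n = 6) to 135 ± 58.9 (SD, n = 3), an 11.1-fold increase, and the log2 fold change of 3.50 had a standard error of 0.40 (adjusted p = 6.05e-05). Relative to its mean, its spread was alike in both groups, with a coefficient of variation of 43.6% after anti-CD40 and 44.3% in control mice.

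Cxcl2, the closest partner of Cxcl1 in function and a product of activated macrophages and neutrophils themselves, lies next to Cxcl1, their starts at 144.6 and 131.9 kb from that of Cxcl5 (chromosome 5, 90903899 to 90905938). After anti-CD40 its FPKM was 13.1, 18.2, and 15.0 in mice 2, 5, and 9. In control mice 3, 4, 7, 8, 11, and 12 it was 0.657, 1.44, 0.550, 0.01, 0.241, and 0.127. Behind these values were 254, 332, and 255 reads in the anti-CD40 mice and 11, 26, 10, 0, 4, and 2 reads in the control mice, so the control level rests on few reads. The increase was 30.6-fold in means, from 0.504 ± 0.520 (SD, n = 6) to 15.4 ± 2.57 (SD, n = 3). Its log2 fold change of 5.15 ± 0.68 (standard error, with adjusted p = 0.000168) placed it 39th from the top of the 13807 genes. This was the largest log2 fold change of the 7 genes on this scale, which understates the change of genes near or below 0.1 FPKM.

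Cxcl3 and Cxcl5 were scarce in liver and also rose. Cxcl3, a CXCR2 ligand close in sequence to Cxcl1 and Cxcl2 (chromosome 5, 90786101 to 90788093), was listed at the lowest value of 0.01 in all 6 control mice and at 0.611, 0.709, and 0.381 FPKM in anti-CD40 mice 2, 5, and 9. Those levels came from 11, 12, and 6 reads. Taking 3 reads over the whole control group as the limit that a count of 0 allows (counting error only), Cxcl3 was at least 17.7-fold higher after anti-CD40. Its log2 fold change of 2.57 ± 0.22 (standard error, with adjusted p = 9.19e-06) depends on the pseudocount, and was 0.63 with 1 and 4.80 with 0.01 added before the log, called higher with both.

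Cxcl5, which epithelial cells and platelets release (chromosome 5, 90759298 to 90761625), was 3.61, 1.42, and 1.42 FPKM in anti-CD40 mice 2, 5, and 9. Control mice 3, 4, 7, 8, 11, and 12 had 0.0722, 0.301, 0.0332, 0.0404, 0.109, and 0.0382 FPKM. Mouse 2 was high among the treated and mouse 4 among the control mice, yet the groups did not overlap. Reads numbered 199 over the anti-CD40 and 17 over the control mice, 9 of those 17 from mouse 4. The mean was 2.15 ± 1.26 (SD, n = 3) against 0.0990 ± 0.103 (SD, n = 6), 21.7-fold higher. On the log2 scale the change was 3.48 ± 0.41 (standard error, with adjusted p = 7.26e-05), and 1.45 with a pseudocount of 1 or 4.56 with 0.01. Without control mouse 4 it was 3.71.

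The ligands did not rise in the same order in each mouse. Of the anti-CD40 mice, mouse 2 had the most Cxcl1 and Cxcl5 but the least Cxcl2, and mouse 5 had the most Cxcl2 and Cxcl3 but the least Cxcl1. The ratio of Cxcl1 to Cxcl2 FPKM was accordingly 15.3, 4.64, and 8.09 for mice 2, 5, and 9. In the 5 control mice with Cxcl2 reads it ran from 13.4 to 53.7. The lowest anti-CD40 ratios thus fell below every control ratio, and that of mouse 2 fell within the control range. Without mouse 5, the log2 fold change was 3.80 for Cxcl1, 5.03 for Cxcl2, 2.41 for Cxcl3, and 3.70 for Cxcl5, each still called.

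Whether reads of 1 ligand could be counted for another was checked on the last 500 bases of each annotated transcript of the 7 genes. None of the 50-base stretches was shared with another gene, except in 1 transcript of Cxcl2 (17.5% of its stretches, found in a transcript of Cxcl3) and 1 of Cxcr2 (16.6%, with several unrelated genes). Between the last 500 bases of the transcripts of any 2 ligands, the longest identical run was 16 bases, between Cxcl2 and Cxcl3. The position of each of the 7 genes in the table was held by that gene alone.

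Genes along this stretch of chromosome 5 did not all rise. Between Cxcl5 and Cxcl3, at 9.2 and 13.1 kb from the start of Cxcl5, lie Ppbp and Pf4, chemokine genes whose products are stored in platelets. Pf4 was 17.5 FPKM in control and 19.1 in anti-CD40 mice on average (log2 fold change 0.25, adjusted p = 0.592). Ppbp, whose product is cleaved to another CXCR2 ligand, was 2.06 and 1.46 FPKM (log2 fold change −0.27, adjusted p = 0.669). For neither did the groups separate, with control mice at 7.91 to 31.1 FPKM for Pf4 and 0.787 to 4.93 for Ppbp. Cxcl15, 35.2 kb from Cxcl5, was detected in 1 of the 9 mice and was not tested.

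The genes on both sides of this cluster are named for their position. Upstream, Afm, which encodes a vitamin E–binding plasma protein of hepatocytes, fell from 298 to 42.6 FPKM (log2 fold change −2.77, adjusted p = 4.53e-06), and 5830473C10Rik and Rassf6 were also lower. Downstream, Ereg, which encodes the growth factor epiregulin, lies 315.3 kb from Cxcl5 and rose from 0.145 to 2.00 FPKM (log2 fold change 3.04, adjusted p = 1.98e-05). Its neighbor Areg, which encodes amphiregulin, had a log2 fold change of 1.05 that did not pass the test (adjusted p = 0.0956).

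**Figure D2:**
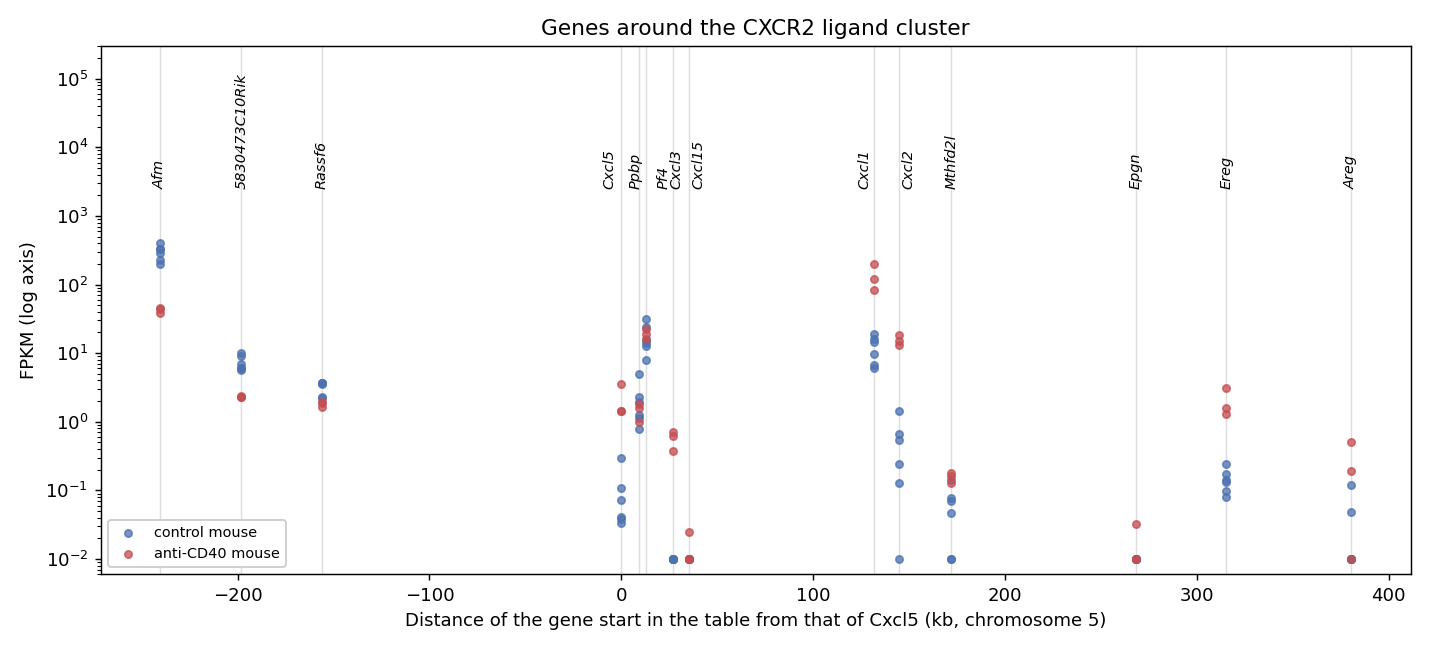
FPKM (log axis) of genes around the CXCR2 ligands, placed by the distance of their start from that of Cxcl5 in kilobases, with 1 point for each mouse (blue, 6 control; red, 3 anti-CD40). Red points stand above blue ones at Cxcl5, Cxcl3, Cxcl1, Cxcl2, and Ereg, mix with them at Ppbp and Pf4, and lie below them at Afm, 5830473C10Rik, and Rassf6.

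Cxcr2 encodes the receptor for the 4 ligands and is carried mainly by neutrophils (chromosome 1, 74153994 to 74161246). Anti-CD40 mice 2, 5, and 9 had 1.51, 2.72, and 1.80 FPKM. Control mice 3, 4, 7, 8, 11, and 12 had 0.0738, 0.102, 0.119, 0.01, 0.0186, and 0.01. The 3 anti-CD40 mice gave 95, 161, and 99 reads, whereas the 6 control mice gave 18 in all and mice 8 and 12 gave none. The lowest anti-CD40 mouse was 12.7-fold above the highest control mouse, the widest gap among the 6 genes with reads in control mice. The mean rose 36.1-fold, from 0.0556 ± 0.0491 (SD, n = 6) to 2.01 ± 0.632 (SD, n = 3), or by 3.78 ± 0.30 on the log2 scale (standard error, with adjusted p = 6.56e-06). The log2 value was 1.49 with a pseudocount of 1 and 5.32 with 0.01.

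Markers of neutrophils moved with Cxcr2. All 13 mature neutrophil markers tested were higher after anti-CD40, with a median log2 fold change of 4.72. Their summed level was 4284 to 5265 FPKM against 24.6 to 163 in control mice. S100a8 and S100a9, at means of 3316 and 1437 FPKM after anti-CD40, made up most of this sum. The largest changes were in S100a9 (7.02) and S100a8 (7.00), which encode the calprotectin subunits, Retnlg (6.38), and Il1r2 (6.02), a decoy receptor for IL-1. Ly6g was not analysed here. Among control mice, the markers were highest in mice 4 and 7 (162.9 and 90.4 FPKM), which also had the most Cxcr2. Control mice 8 and 12, with no Cxcr2 reads, had 26.3 and 26.9 FPKM, but mouse 11, with 1 read, had the lowest summed level (24.6 FPKM). By the mean log2 level of the 13 markers, control mouse 12 was lowest (−0.96), then mouse 11 (−0.92). Among the anti-CD40 mice the order matched only in part. Mouse 5 had the highest marker level (5265 FPKM) and the most Cxcr2 (2.72 FPKM). Mouse 2, with 5112 FPKM of markers, had the least Cxcr2 (1.51 FPKM), and mouse 9, with 4284 FPKM, had more (1.80 FPKM). The part of neutrophil number in the result for Cxcr2 was not tested.

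Granule genes, switched on in immature neutrophils of the marrow, were less abundant. Of the 10 listed, 6 were tested, and 5 were higher and 1 lower. Camp (log2 fold change 4.73) and Ngp (4.33), which encode secondary granule proteins, rose most, followed by Prtn3 (2.69) and Ltf (1.74). Cebpe, a transcription factor of granule formation, was lower (−1.0, adjusted p = 0.0116), though its groups overlapped, and this call was lost without anti-CD40 mouse 2 or mouse 9. Mpo, Elane, Ms4a3, and Fcnb were too low to test, with Mpo and Elane at 20 and 4 reads over the 3 anti-CD40 mice. The summed level of the 10 was 22.3 to 32.9 FPKM after anti-CD40 and 2.69 to 8.19 in control mice.

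Cxcr4, the receptor for CXCL12 (chromosome 1, 128588199 to 128592299), was 32.5, 22.5, and 17.3 FPKM in anti-CD40 mice 2, 5, and 9. It was 1.89, 5.45, 2.88, 1.97, 2.73, and 1.62 FPKM in control mice 3, 4, 7, 8, 11, and 12. Groups did not overlap, and mouse 4 was again the highest control. The counts behind these values were 2453 reads over the anti-CD40 and 519 over the control mice. The mean rose 8.74-fold, from 2.76 ± 1.41 (SD, n = 6) to 24.1 ± 7.75 (SD, n = 3), or by 3.15 ± 0.35 on the log2 scale (standard error, with adjusted p = 4.71e-05). The log2 value was 3.37 without control mouse 4 and 3.18 without anti-CD40 mouse 5. Cxcr4 was thus higher in the livers in which neutrophil markers and Cxcr2 were higher.

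Several cell types that carry CXCR4 had higher markers as well. All 6 B cell markers tested rose (median log2 fold change 2.31), among them Ms4a1, which encodes CD20 (4.3), and Cd79b, which encodes a subunit of the B cell receptor (2.51). Their summed level was 26.9 to 38.1 FPKM after anti-CD40 and 2.104 to 8.05 in control mice, and mouse 4 was the highest control. Of the 9 T and NK cell markers tested, 8 rose (median 1.30, summed level 73.5 to 99.5 against 5.48 to 16.03 FPKM), most of all Gzma (4.47). Gzma, at a mean of 72.3 FPKM after anti-CD40, made up most of that sum, and Cd4 did not pass (0.49, adjusted p = 0.09). Of the 9, 5 were called without anti-CD40 mouse 9, control mouse 3, or control mouse 11. The number called was also 5 after quantile normalization or with no filter, and 4 among genes of at least 1 FPKM. Of 8 monocyte markers, 7 rose (median 3.00, summed level 587 to 787 against 47.4 to 129 FPKM), led by Chil3 (7.88) and Ly6c2 (5.61). In anti-CD40 mouse 2, which had the most Cxcr4 and the most B cell markers, Cxcr2 was the lowest of the 3, so the 2 receptors did not share an order among treated mice. Pax5, a B cell transcription factor, was at 0.01 FPKM in 8 of the 9 mice. The part of each cell type in the result for Cxcr4 was not tested.

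Cxcl12 was the only one of the 7 genes that fell, and the one with the tightest values (chromosome 6, 117168535 to 117181368). In anti-CD40 mice 2, 5, and 9 it was 88.4, 87.2, and 90.7 FPKM. In control mice 3, 4, 7, 8, 11, and 12 it was 177, 179.5, 178, 162, 181, and 156 FPKM. The treated mice lay within 1.04-fold of each other, and the lowest control mouse was still 1.72-fold above the highest treated one. The mean was 88.8 ± 1.75 (SD, n = 3) against 172 ± 10.6 (SD, n = 6), so that control livers had 1.94-fold more. On the log2 scale the difference was −0.95 ± 0.09 (standard error, with adjusted p = 2.11e-05). Its size depends on scaling, and was −0.54 after quantile normalization and −0.59 when the serum amyloid A genes were left out and each mouse rescaled, which moved the median of all genes from 0.006 to 0.346. Both remained below 0 and passed the test, and relative to the median of all genes Cxcl12 was at −0.45 and −0.93. In the ranking of the 13807 genes from the most increased, Cxcl12 stood at place 12287.

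Markers of cells that make CXCL12 in liver did not all change in 1 direction. Of 12 stellate cell and fibroblast markers, 5 fell, 3 rose, and 4 did not pass the test (median −0.25). Those that fell were Colec11 (−2.92), Ecm1 (−2.08), Reln (−2.06), Lrat, which encodes the enzyme that makes retinyl esters for storage (−1.23), and Lhx2 (−1.0). The collagen genes Col1a1 (1.79) and Col3a1 (1.65) and the receptor gene Pdgfrb (1.1) rose. Dcn, the most abundant of the list, was at −0.19 (adjusted p = 0.305). The summed level was 236 to 270 FPKM after anti-CD40 and 314 to 451 in control mice. Of 10 sinusoidal endothelial markers, 3 rose, 3 fell, and 4 did not pass, and their summed level overlapped between groups (118 to 125 against 118 to 143 FPKM). Without anti-CD40 mouse 5 or mouse 9, 1 endothelial marker was called higher. With the serum amyloid A genes left out and each mouse rescaled, 6 were higher and 2 lower, and with array weights 5 were higher and 4 lower. Lyve1 rose most (2.08), and Oit3 (−0.90) and Clec4g (−0.88) fell. Of 10 hepatocyte markers, 7 were also lower, 1 was higher (Fga, 0.98, with overlapping groups), and 2 did not pass (median −1.12). The part of these cells in the result for Cxcl12 was not tested.

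**Figure D3:**
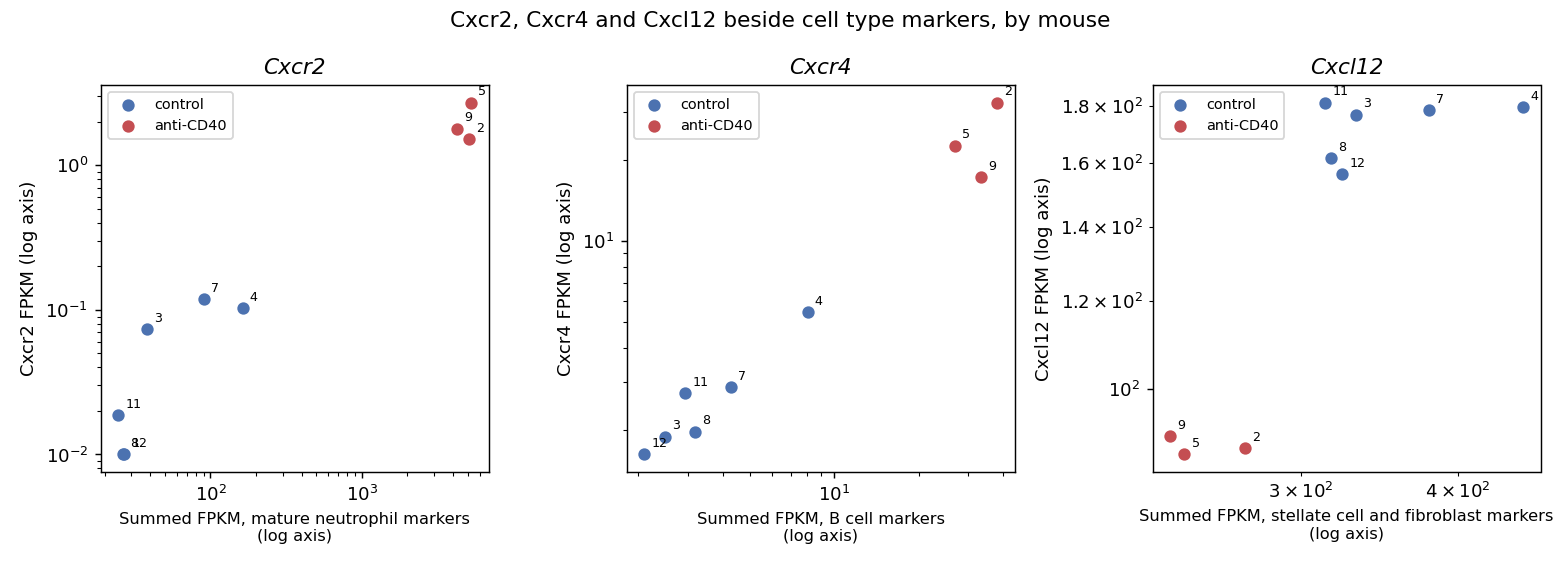
FPKM of Cxcr2, Cxcr4, and Cxcl12 (log y axes) against the summed FPKM of mature neutrophil, B cell, and stellate cell and fibroblast markers (log x axes), with 1 point for each of 6 control (blue) and 3 anti-CD40 (red) mice, numbered. Both axes separate the groups in each panel: for Cxcr2 and Cxcr4 the anti-CD40 mice lie at the upper right, and for Cxcl12 at the lower left.

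FPKM is a level per length of transcript, whereas 3′ libraries give 1 read per transcript, so an order of levels between genes is approximate. In control livers the order ran from Cxcl12 (mean 172 FPKM) through Cxcl1 (12.1), Cxcr4 (2.76), Cxcl2 (0.504), Cxcl5 (0.0990), and Cxcr2 (0.0556) to Cxcl3, which had no reads. The first 4 did not overlap each other, whereas Cxcl2 overlapped Cxcl5, and Cxcl5 overlapped Cxcr2. After anti-CD40 the order was Cxcl1 (135), Cxcl12 (88.8), Cxcr4 (24.1), Cxcl2 (15.4), Cxcl5 (2.15), Cxcr2 (2.01), and Cxcl3 (0.567). In this group Cxcl1 and Cxcl12, Cxcr4 and Cxcl2, and Cxcl5 and Cxcr2 overlapped. The ratio of Cxcl1 to Cxcl12 FPKM within a mouse came to 2.26, 0.965, and 1.34 for anti-CD40 mice 2, 5, and 9, against 0.0334 to 0.107 for control mice. The ratio of Cxcr4 to its ligand Cxcl12 was 0.368, 0.258, and 0.190 after anti-CD40 and 0.0104 to 0.0304 in control mice. No control mouse reached the lowest anti-CD40 value of either ratio.

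Of the 10 other CXC ligand genes, 8 were tested, and limma called 5 higher and 0 lower, as at an unadjusted p under 0.05 (median log2 fold change 1.85). The 3 ligands of CXCR3, a receptor of activated T cells, were among them, and Cxcl9 rose from 9.56 ± 3.83 (SD, n = 6) to 409 ± 48.1 FPKM (SD, n = 3; log2 fold change 5.47, adjusted p = 3.25e-07). Cxcl10 (3.26, adjusted p = 0.00123) and Cxcl11 (1.33, adjusted p = 0.00108) share a position in the table. Cxcl16, the membrane-bound ligand of CXCR6, rose from 5.45 to 28.3 FPKM (2.36, adjusted p = 1.66e-06), and Cxcl14 from 1.22 to 6.65 (2.46, adjusted p = 0.000424). Cxcl13, which draws B cells through CXCR5, was 4.82 FPKM in control and 3.58 in anti-CD40 mice (−0.42, adjusted p = 0.227). Cxcl15 and Cxcl17 were too low to test. No CXC ligand tested other than Cxcl12 was called lower.

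Among the other CXC and atypical receptors, 7 of 8 were tested, 3 were higher and 1 lower (median 0.73). Cxcr3 rose by a log2 fold change of 1.18 (adjusted p = 0.00438), Cxcr5 by 0.96 (adjusted p = 0.00153), and Cxcr6 by 0.73 (adjusted p = 0.0230), all less than Cxcr2 and Cxcr4. Cxcr1, the other receptor for some CXCR2 ligands, had 1 read in the anti-CD40 group and 1 in the control group. Ackr3, which binds and removes CXCL12, was 1.91 FPKM after anti-CD40 and 1.14 in control mice (0.86, adjusted p = 0.108). Ackr4, a scavenger of chemokines of another class, fell from 2.90 to 0.234 FPKM (−3.14, adjusted p = 6.97e-06). Ackr1 (0.36) and Ackr2 (0.35) did not pass the test.

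**Figure D4:**
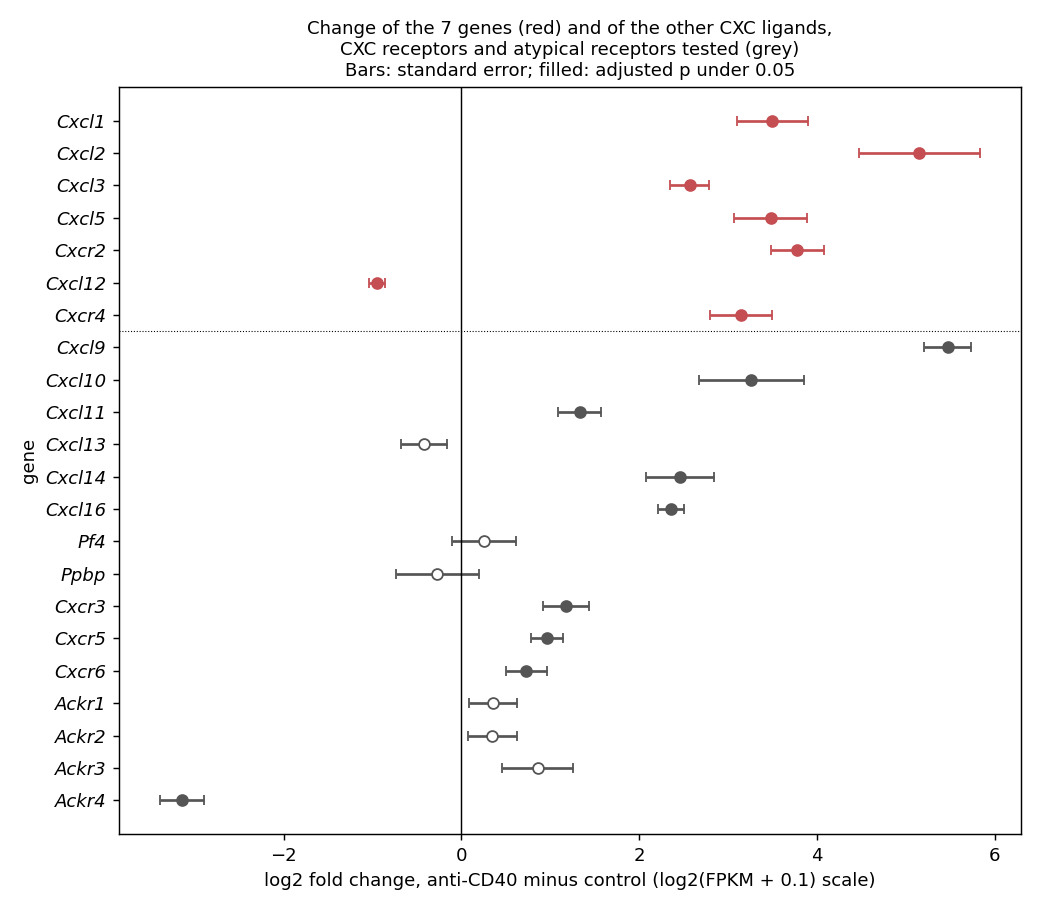
Log2 fold change (anti-CD40 minus control, on the log2(FPKM + 0.1) scale) of the 7 genes in red and of the other CXC ligands and CXC and atypical receptors tested in grey, with standard error bars and filled points for an adjusted p under 0.05. The red points of 6 genes lie between 2.57 and 5.15 and that of Cxcl12 at −0.95, and the only other filled point below 0 is Ackr4.

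Cytokines and receptors that induce CXCR2 ligands were tested in 8 of 12 cases, and 6 were higher and 1 lower (median 1.34). Tnf, an inducer of all 4 ligands, rose from 0.179 to 3.89 FPKM (log2 fold change 3.90, adjusted p = 7.21e-06). Csf3r, the receptor for the growth factor that releases neutrophils from marrow and also 1 of the neutrophil markers, rose by 1.90, and the receptor genes Il1r1 and Il17ra by 1.63 and 1.04. Il1b passed the test (1.89, adjusted p = 0.0387), but control mice reached 14.6 FPKM and overlapped the anti-CD40 mice, whose lowest value was 13.3. Il17rc was lower (−0.67, adjusted p = 0.0301), a call that was lost on leaving out any of the 3 anti-CD40 mice or control mouse 8 or 11. Il17a, Il17f, Csf3, and Csf2 were too low to test, with Il17a at 0.01 FPKM in all 9 mice.

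Transcripts of CXCR2 ligands are short lived, and proteins that bind their 3′ ends set their decay. Of 10 regulators of these transcripts, not all of which bind 3′ ends, limma called 5 higher and 0 lower, and 5 did not pass (median 0.50). The counts higher and lower were the same at an unadjusted p under 0.05. Nfkbiz (2.08), which encodes a nuclear partner of NF-κB, Arid5a (1.92), which stabilizes inflammatory transcripts, Zc3h12a (1.45), which encodes an RNase that cuts them, and Hnrnpd (0.61) rose most. Zfp36, which encodes tristetraprolin and promotes decay, was 18.2 FPKM in control and 18.4 in anti-CD40 mice (0.04, adjusted p = 0.880). Stabilizing and degrading factors were thus both among those that rose.

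Genes that carry or end the signal of these receptors in phagocytes were higher in 18 of 19 (median 1.23), and both kinds were among the 18. Gnai3, which encodes a G protein subunit, did not pass (0.03, adjusted p = 0.950). The largest changes were in Fgr (2.96), a Src-family kinase, Rac2 (2.62), a GTPase of neutrophil movement, Pik3r5 (2.57), the adaptor of the PI3-kinase that G proteins activate, and Rgs1 (2.21), which ends chemokine signaling. Of 8 other receptors through which neutrophils sense chemoattractants, 7 were higher (median 2.75). Ccr1 (4.04), the complement receptor C5ar1 (3.44), the platelet-activating factor receptor Ptafr (3.23), and the formyl peptide receptor Fpr2 (3.13) led these, whereas C5ar2 did not pass (−0.08, adjusted p = 0.772). Of 6 partners of CXCR4 and CXCL12, 2 rose and 1 fell (median 0.56). Cd74, a receptor for the CXCR4 ligand MIF, rose by 3.17 and Hif1a by 1.11, while Dpp4, a peptidase that inactivates CXCL12, fell by 0.98 (adjusted p = 8.12e-05) from 16.4 to 8.23 FPKM. Mif was at 0.03 (adjusted p = 0.899).

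Kupffer cells, the resident macrophages of liver and a source of CXCR2 ligands, had lower markers in all 8 tested (median −3.55), at a summed level of 40.6 to 52.9 FPKM after anti-CD40 and 295 to 470 in control mice. Clec4f was 0.107 FPKM after anti-CD40 and 20.8 in control mice. Between groups, the CXCR2 ligands were higher and these markers lower after anti-CD40. Among the anti-CD40 mice, mouse 5 had the lowest summed level of these markers (40.6 FPKM) and the least Cxcl1 (84.2 FPKM). Mouse 5 also had the most Cxcl2 and Cxcl3. By the mean log2 level of the 8 markers, mouse 2 was lowest (0.42, against 0.48 in mouse 5 and 0.73 in mouse 9). Mouse 2 had the most Cxcl1 (199.5 FPKM), so no order held across measures and ligands. The source of the ligands was not tested. Platelet markers, of interest for Cxcl5, rose in 2 of 6 (median 0.35), and their summed level overlapped, at 23.1 to 29.98 FPKM after anti-CD40 and 11.4 to 42.9 in control mice. No platelet marker was called higher without anti-CD40 mouse 2, and 1 without mouse 9. Cholangiocyte markers rose in 2 of 5 tested, Sox9 (3.57) and Spp1 (2.39), whereas the keratin genes Krt7 (0.19) and Krt19 (0.90) did not pass. Of the 6 erythroid genes tested, 0 passed with limma and 0 had an unadjusted p under 0.05 (median −0.96), though 2 were lower without anti-CD40 mouse 2, and Hba-a1 was at 0.01 FPKM throughout. Of 10 pancreatic acinar genes, 1 was higher, and 7 were higher without anti-CD40 mouse 2 whereas 2 were lower without mouse 5.

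The profile of each gene over the 9 mice, centered on its own mean of log2(FPKM + 0.1), was compared with those of the 10155 genes that averaged at least 1 FPKM, and the 3 with the smallest root mean square difference were named. For Cxcl1 these were Emb (0.28), Plek (0.28), and Lilrb4a (0.34). Cxcl2 had no gene as close, with Clec4d (0.68), Traf1 (0.73), and Ngp (0.79) nearest. The nearest to Cxcl3 were Upp1 (0.16), Col4a1 (0.21), and Tifa (0.21). Those to Cxcl5 were Slamf8 (0.32), Cxcr4 (0.34), and Myo1g (0.38), so that Cxcr4 stood second for Cxcl5.

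Cxcr2 lay nearest to Cd63 (0.29), Mmp9 (0.31), and Sh3pxd2b (0.32), and Mmp9, a gelatinase stored in neutrophil granules, is also on the list of neutrophil markers. Cxcr4 lay nearest to Dram1 (0.18), Lilrb4a (0.27), and Plaur (0.27). Lilrb4a was thus among the nearest of both Cxcl1 and Cxcr4. For Cxcl12 the nearest genes differed by 0.07 each (Bod1, Ndufv2, and Jtb), and these fell by 0.98, 0.92, and 0.83 on the log2 scale. Likeness on this measure mixes the difference between groups with the order of mice within them.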

How the data were processed

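The authors sequenced QuantSeq 3′ FWD libraries on a NextSeq 500, aligned reads to mm10 with STAR in the RNA-Seq Alignment application (version 1.1.0), and ran CuffDiff in the Cufflinks Assembly & DE application (version 2.1.0). They deposited 1 table of FPKM values for 24341 genes in 9 mice, with a lowest value of 0.01. The annotation and any filter used are not given in the sources used here. Mice were grouped by the sample labels.

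Genes with a failed estimate (15) were left out. log2(FPKM + 0.1) was fitted with limma 3.58.1 in R 4.3.3 (eBayes with a trend, 2-sided, treatment as the only term, all 9 mice) in the 13807 genes with a mean of at least 0.1 FPKM, with Benjamini-Hochberg adjustment at 0.05. The 7 genes were also tested by exact permutation. As alternatives, a pseudocount of 1 or 0.01, a mean of at least 1 FPKM or no filter, other scalings, other eBayes settings, a required fold change of 2, and leaving out each mouse were tried. The scripts were tested on simulated data. Whole reads were recovered in every mouse for 70.3% of 3208 low genes (tolerance 0.05 of a read), but not for abundant genes such as Cxcl1 and Cxcl12, so no test on counts was run. Intervals that need read totals were not computed.

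Promoters came from RefSeq and transcript ends from the GENCODE annotation of GRCm38. Gene positions are those of the table, with starts counted from 1. Python 3.11.15, pandas 2.3.3, and matplotlib 3.10.9 did the other steps. The 7 genes, the gene lists, and the tests were chosen with earlier results of these data known, so a pattern seen before is not independent support. Named genes were the 7, all other CXC ligands and CXC and atypical receptors, up to 4 genes per other list with the largest change among those called without overlap, any marker of a cell type described beside a result, and the 3 nearest profiles of each gene. Neighbors on chromosome 5 and list genes that did not pass the test were named outside this rule, after their values were seen. The value of 1 listed gene is not reported here.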

Additional observations from a re-analysis of the deposited data

Results flagged for a closer look

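By Dixon's test on FPKM, control mouse 4 stood apart from the other 5 control mice in 2 genes. Of the 7 genes, all but Cxcl3 were tested, because Cxcl3 was at 0.01 FPKM in every control mouse. The test was not run on the log2 scale of the fits. It divides the gap to the nearest mouse by the range of the group. That share is then compared with the critical value for 6 mice. For Cxcl5 this share was 0.715, with 0.301 FPKM in mouse 4 and 0.109 in the next mouse. For Cxcr4 it was 0.672, with 5.45 FPKM in mouse 4 and 2.88 in the next mouse. Mouse 4 was also the highest control for Cxcl1 and Cxcl2, without passing this limit. It had the highest summed level of mature neutrophil markers (162.9 FPKM) and of B cell markers (8.05 FPKM) among control mice. It was also the highest control for erythroid (50532 FPKM, against 7494 to 13469 in the others), platelet (42.9 FPKM), T and NK cell (16.03 FPKM), and stellate cell and fibroblast markers (451 FPKM). Their part in these values was not tested. For normally spread values, chance alone places about 1 in 20 groups past the limit. Whether that rate holds here was not tested, and the control values of Cxcl5 rest on 1 to 9 reads. Leaving this mouse out gave log2 fold changes of 3.71 for Cxcl5 and 3.37 for Cxcr4.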

How the results depend on the processing

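All 7 genes kept their direction and passed the test under each alternative fit that could be run, 19 for Cxcl1, Cxcl2, Cxcl12, and Cxcr4, and 18 for Cxcl3, Cxcl5, and Cxcr2, which could not be tested with a mean of at least 1 FPKM. The largest adjusted p was 0.00225 (limma). Requiring a fold change of 2 as well was applied to counts over all genes only, and Cxcl12, at −0.95 on the log2 scale, is short of it. Leaving out each mouse gave log2 fold changes of 3.18 to 3.80 for Cxcl1, 4.76 to 5.52 for Cxcl2, 2.41 to 2.79 for Cxcl3, 3.06 to 3.71 for Cxcl5, 3.55 to 3.95 for Cxcr2, −0.98 to −0.94 for Cxcl12, and 2.91 to 3.37 for Cxcr4. Pseudocounts of 1 and 0.01 moved Cxcl2 to 3.50 and 5.83, and the low genes as given beside them. Over all genes, 3240 were higher and 2990 lower. These were 5592 and 1649 when the serum amyloid A genes were left out and each mouse rescaled, 1889 and 1253 with a fold change of at least 2 as well, 2990 and 3456 after quantile normalization, and 2182 and 2703 among genes of at least 1 FPKM. Leaving out each mouse gave 2539 to 3539 higher and 2336 to 3269 lower. With the serum amyloid A genes left out, the receptor list had 5 genes higher instead of 3, the list of CXCR4 partners 4 instead of 2, and the endothelial list 6 instead of 3. Under this setting, neither Il17rc nor Cebpe was called. No paired analysis was possible because the groups share no mouse number. Cxcl3, with 29 reads in all, and the control levels of Cxcl2, Cxcl5, and Cxcr2 are limited by counting.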
